A study of Mus musculus with 36 samples.

Results

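The receptor tyrosine kinases of tumor and epithelial cells were followed in mice that develop translocation renal cell carcinoma. The 42 member genes were taken by symbol from a given list, and all 42 were found among the 53379 genes of the count tables. Total RNA had been sequenced from formalin-fixed, paraffin-embedded tissue. The Sglt2-Cre; ASPSCR1-TFE3 LSL/+ mice carry a Cre recombinase driven by the promoter of Sglt2, a glucose transporter of the proximal tubule, which removes a stop cassette (LSL) and switches on the ASPSCR1-TFE3 fusion. From 6 such mice there were 11 kidney tumor libraries, 4 retro-orbital tumors, 3 brain tumors and 4 non-transformed kidneys, and from 3 Sglt2-Cre mice without the fusion there were 6 control kidney libraries. In the second model, Pax8-Cre; ASPSCR1-TFE3 LSL/+, Cre is driven by the promoter of Pax8, a factor of the whole renal epithelium, and kidneys came from 5 fetuses labelled dysmorphic and from 3 age-matched control fetuses labelled Pax8-Cre. Ages were not given. All adult groups carry Sglt2-Cre, so by the genotype labels only the fusion sets the control kidneys apart. Tumor and kidney tissue differ as well, and by Y-linked transcripts all control mice were female while some fusion mice were male. Libraries of the same mouse and tissue were summed, which left 28 samples of 17 animals, and fusion mice are named here as mouse 1 to mouse 6. Kidney tumor values are such sums unless single libraries are named.

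Receptor tyrosine kinases are single-pass membrane proteins whose outer part binds a ligand and whose inner part is a kinase. Ligand binding brings receptor chains together, the chains phosphorylate each other, and adaptor proteins carry the signal to the RAS-MAPK and PI3K-AKT pathways, which in turn induce feedback inhibitors. In the kidney, GDNF acting through the receptor RET drives branching of the ureteric bud, HGF acting through MET and EGF acting through EGFR act on the tubule after injury, and ephrins acting through Eph receptors set boundaries between cells. The fusion protein keeps the DNA-binding part of TFE3, a transcription factor that binds E-box motifs.

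Because TFE3 binds E-boxes, the promoter windows of members that changed in the kidney tumors, and of Met, were read from RefSeq on GRCm38.p6, from 250 bases before to 50 bases after the start site. Windows were found for 36 of the 42 members and not for Ret, Erbb3, Fgfr1, Insr, Insrr or Ntrk3. Capitals mark CANNTG, the general E-box, which reads the same on both strands and includes CACGTG. The windows are those of Met (chr6:17463707-17464006, plus strand, 75.7% G and C), Axl (chr7:25788684-25788983, minus strand, 60.3% G and C), Tyro3 (chr2:119799264-119799563, plus strand, 73.3% G and C), Epha5 (chr5:84417333-84417632, minus strand, 64.3% G and C), Epha7 (chr4:28812881-28813180, plus strand, 67% G and C) and Erbb2 (chr11:98412234-98412533, plus strand, 66% G and C).
Met: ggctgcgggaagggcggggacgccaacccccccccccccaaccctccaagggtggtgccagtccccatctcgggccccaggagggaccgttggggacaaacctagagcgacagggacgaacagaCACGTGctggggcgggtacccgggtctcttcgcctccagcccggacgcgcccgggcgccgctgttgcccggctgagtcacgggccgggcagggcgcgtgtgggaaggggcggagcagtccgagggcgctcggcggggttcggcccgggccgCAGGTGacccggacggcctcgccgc
Axl: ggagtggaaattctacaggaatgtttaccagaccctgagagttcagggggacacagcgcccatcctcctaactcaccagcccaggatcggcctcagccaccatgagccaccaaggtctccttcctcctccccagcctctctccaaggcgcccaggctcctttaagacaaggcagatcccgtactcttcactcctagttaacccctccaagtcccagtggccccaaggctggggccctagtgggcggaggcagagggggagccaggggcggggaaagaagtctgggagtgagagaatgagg
Tyro3: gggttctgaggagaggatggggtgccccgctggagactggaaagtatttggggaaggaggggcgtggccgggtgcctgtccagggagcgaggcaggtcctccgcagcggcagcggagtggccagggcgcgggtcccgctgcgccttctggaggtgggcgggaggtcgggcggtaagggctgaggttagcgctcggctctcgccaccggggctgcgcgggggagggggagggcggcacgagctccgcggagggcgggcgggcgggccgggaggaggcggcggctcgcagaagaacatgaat
Epha5: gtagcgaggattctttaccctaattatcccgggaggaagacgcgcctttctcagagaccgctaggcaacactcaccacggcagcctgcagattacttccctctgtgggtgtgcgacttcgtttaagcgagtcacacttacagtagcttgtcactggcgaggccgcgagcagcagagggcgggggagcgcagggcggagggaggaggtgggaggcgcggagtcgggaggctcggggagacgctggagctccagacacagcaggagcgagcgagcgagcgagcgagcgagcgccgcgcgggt
Epha7: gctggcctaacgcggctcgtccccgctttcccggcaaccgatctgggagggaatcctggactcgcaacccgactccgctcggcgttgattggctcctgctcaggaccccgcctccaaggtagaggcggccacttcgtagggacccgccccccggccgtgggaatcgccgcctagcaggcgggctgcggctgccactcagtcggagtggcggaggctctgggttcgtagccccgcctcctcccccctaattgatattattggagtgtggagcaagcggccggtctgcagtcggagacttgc
Erbb2: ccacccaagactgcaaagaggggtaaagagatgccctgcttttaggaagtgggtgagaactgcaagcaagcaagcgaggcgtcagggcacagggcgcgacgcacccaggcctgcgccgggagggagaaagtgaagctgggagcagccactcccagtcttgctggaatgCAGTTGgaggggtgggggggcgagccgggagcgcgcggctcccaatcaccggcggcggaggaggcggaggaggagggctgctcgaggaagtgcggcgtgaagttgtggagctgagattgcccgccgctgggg
CANNTG was present in 26 of 43 windows of the members and in 72.3% of all 32851 windows. CACGTG was present in 3 of the 43, those of Met, Flt3 and Fgfr2, and in 7.15% of all windows. In Met the CACGTG lies 126 bases before the RefSeq start site, which is downstream of the gene start in the GENCODE coordinates used elsewhere here, so by those it lies inside the gene. The window of Erbb2, the changed member that was lower in kidney tumors, holds 1 CANNTG and no CACGTG. The windows of Axl, Tyro3, Epha5 and Epha7 hold neither motif, which says only that these letters are not within these 300 bases.

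Depth was even over the groups, with 80205573 to 121415057 counts per library. The fusion was checked through 4 genes known as targets of TFE3 fusions (Gpnmb, Ctsk, Pmel and Mlana), whose summed level was 6.46 to 7.27 CPM (counts relative to the scaled library total) in control kidneys and 3260 to 7250 in kidney tumors. Brain tumors had 2810 to 4620, retro-orbital tumors 3570 to 5860 and non-transformed kidneys 116 to 475 CPM. Fetal kidneys had 6.26 to 13 in controls and 65.4 to 674 in the dysmorphic group. The labelled kidney tissue varied in its content of tubule. All 6 proximal tubule markers and all 5 markers of the loop of Henle and distal tubule had over 3 counts in every adult sample, but their sums differed widely. In kidney tumors of mouse 4 and mouse 5 the proximal sum was 7370 CPM in both and the distal sum was 4330 and 6410 CPM. In mice 2, 3 and 6 the proximal sums were 637, 632 and 631 CPM and the distal sums 240, 70.6 and 22.6 CPM, while control kidneys had 10700 to 11400 and 6700 to 7620. In bulk tissue, fewer cells of a type and less RNA per cell cannot be told apart. Mouse 1, mouse 5, dysmorphic fetuses 1, 2 and 3 and control fetus 1 were male by Y-linked transcripts and the other animals female.

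**Figure D1:**
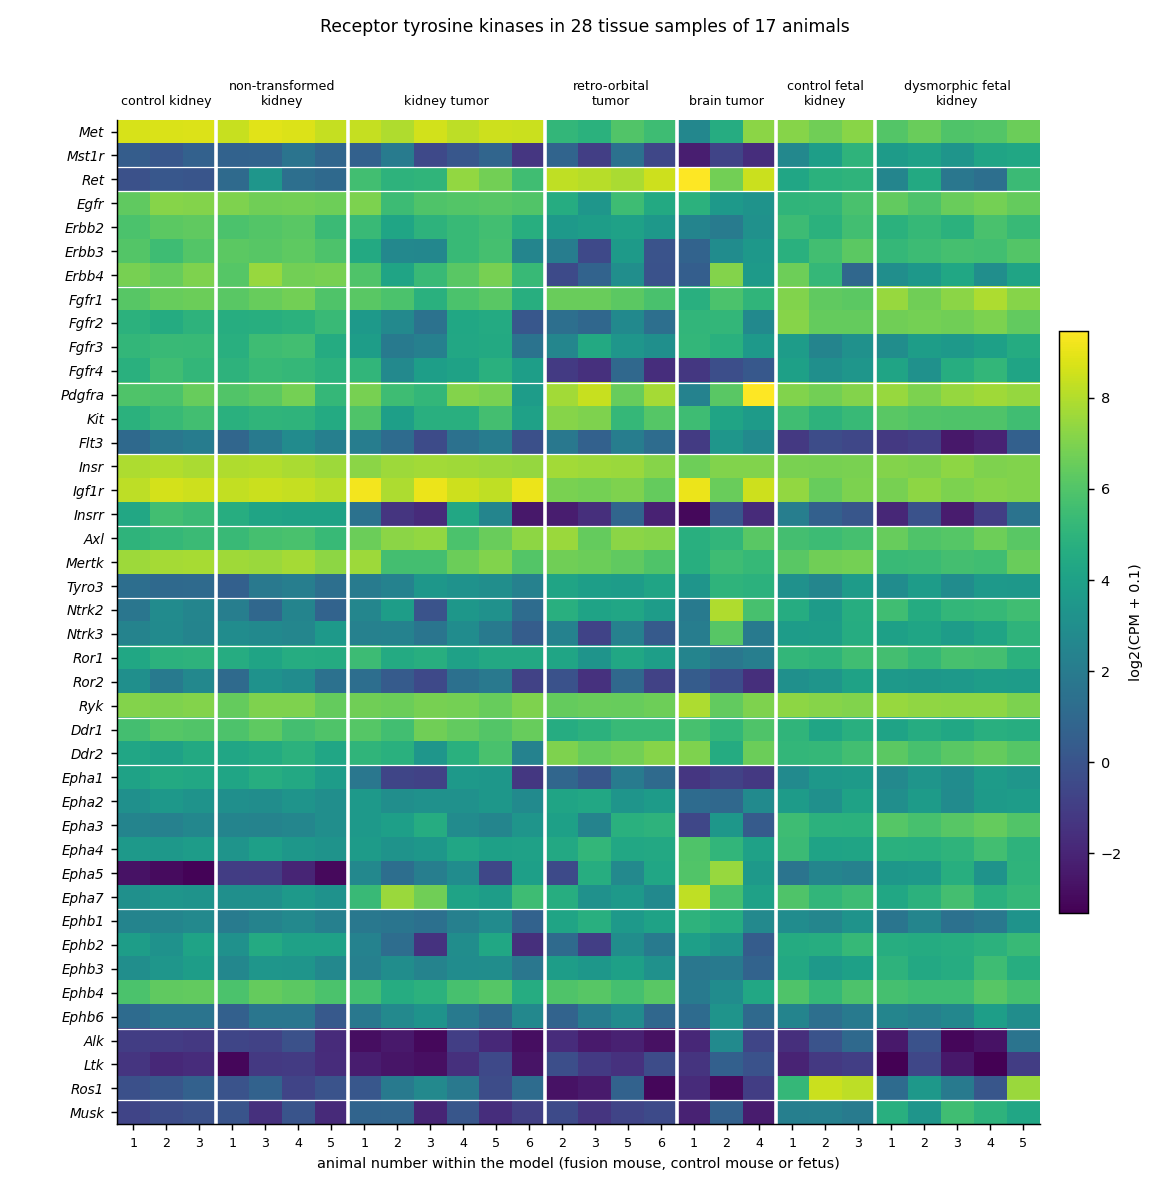
Level of the 42 receptors as log2(CPM + 0.1) in the 28 samples, with receptors in rows by family and samples in columns by group. Ret, Epha5 and Epha7 are low in the adult control kidneys and higher in the kidney tumors, and Met and Fgfr4 are lower in the retro-orbital tumors than in the kidney tumors.

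Levels of different receptors were compared as mean CPM per kilobase of exon (CPM/kb). In control kidneys Met, the receptor of HGF, was at 56.7 CPM/kb, Mertk, a receptor for the clearance of dying cells, at 48.8 and Ryk, a Wnt receptor without kinase activity, at 29.7. The ranges of these receptors did not overlap. Igf1r followed at 21.1 and Insr at 17.8 CPM/kb, while Ret ranked 39 of 42 at 0.137 and Epha5 ranked 42 at 0.00178 CPM/kb.

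The order was another one in the tumors. In kidney tumors the highest were Met at 42.9, Igf1r at 26.0, Axl at 24.3, Ryk at 23.9 and Mertk at 22.7 CPM/kb, and the ranges of neighbours among these overlapped. Ret had rank 8. In retro-orbital tumors Ret was first at 43.2 CPM/kb, before Axl at 28.5, Pdgfra at 21.2, Ryk at 20.6 and Mertk at 19.8, and Met had rank 13. In brain tumors Ret was again first at 57.7 CPM/kb, before Ryk at 33.1, Pdgfra at 25.7, Igf1r at 19.9 and Epha7 at 12.6, and Met had rank 11. These brain means rest on single tumors in part, with Pdgfra at 4.93, 72.6 and 695 CPM and Epha7 at 307, 51.3 and 15.8 CPM in mice 1, 2 and 4. The ranges of neighbours among the first 4 overlapped in both tumor sites.

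The fetal kidneys had an order of their own. Control fetal kidneys were led by Ryk at 31.8, Ros1 at 29.2 and Mertk at 22.2 CPM/kb, and dysmorphic fetal kidneys by Ryk at 34.6, Pdgfra at 17.2 and Fgfr1 at 16.4 CPM/kb. Of the neighbours in these orders, Ryk and Pdgfra in the dysmorphic kidneys did not overlap and the others did. The order depends on the length used. Per kilobase of the longest transcript Fgfr2 stood before Mertk in the controls, at 24.1 compared to 22.4, and Fgfr1 before Pdgfra in the dysmorphic kidneys, at 32.2 compared to 25.2. Ret had rank 20 in the controls and rank 30 in the dysmorphic kidneys.

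Comparisons between groups used edgeR, with a call at a Benjamini-Hochberg adjusted p under 0.05 over all genes tested. Differences given with a standard error (SE), or as lost or kept calls, are log2 fold changes. All 42 members passed the filter on low counts in every comparison. Between kidney tumors and control kidneys 6 members (14.3%) changed, 5 higher and 1 lower, where 19.0% of all 23578 genes tested did (12.5% higher and 6.51% lower). Their median log2 fold change was -0.34 compared to 0.05 for all genes. Between kidney tumors and non-transformed kidneys 5 members (11.9%) changed, 4 higher and 1 lower, where 17.1% of all genes did (12.1% higher and 5.02% lower), and the medians were -0.37 and -0.02. The balance of direction depended on the setting. Compared to control kidneys it was 6 members higher and 5 lower with DESeq2, 7 and 9 with sex as a covariate (control mice were all female) and 8 and 17 with every library as a sample, and compared to non-transformed kidneys 6 and 5 with DESeq2. With the mouse as a block, 2 members were called in the latter comparison, Epha5 and Tyro3, where 4.12% of all genes were.

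Tumors outside the kidney were compared with kidney tumors and with each other. Retro-orbital and kidney tumors differed in 13 members (31%), 6 higher and 7 lower in the retro-orbital tumors, where 17.7% of all genes differed (8.26% higher and 9.45% lower). Of all calls there 46.6% were higher, and 57.8% with upper-quartile scaling. Brain and kidney tumors differed in 9 members (21.4%), 5 higher and 4 lower in the brain, where 8.74% of all genes differed (4.54% higher and 4.20% lower), and with the mouse as a block no gene was called. In the comparison of brain with retro-orbital tumors edgeR called 0 members, with 1.73% of all genes called. There 19 members had an unadjusted p under 0.05, as did 21.5% of all genes, and DESeq2 called 14 members and 9.5% of all genes. Summed endothelial markers were 871 to 1310 CPM in retro-orbital and 349 to 634 in kidney tumors, without overlap, and their part in the rises in retro-orbital tumors was not tested.

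In the kidneys without tumors there were fewer calls. Non-transformed and control kidneys differed in 0 members by edgeR, with 0.00952% of all genes called, 4 members and 11.7% of all genes at an unadjusted p under 0.05, and 2 members and 1.79% of all genes called by DESeq2. Dysmorphic and control fetal kidneys differed in 1 member (2.38%), where 2.67% of all genes differed (2.40% higher and 0.269% lower). The fusion effect differed between adult and fetal model in 6 members (14.3%), 4 higher and 2 lower in the adult, where 8.94% of all genes did (6.87% higher and 2.07% lower). In all, 18 members (42.9%) were called in at least 1 of the 7 comparisons of groups, 10 (23.8%) in at least 2, and 24 in none. Of the 18975 genes tested in all 7, 39.1% were called in at least 1 and 20% in at least 2. Comparisons that share the kidney tumors or the control kidneys are not independent of each other.

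**Figure D2:**
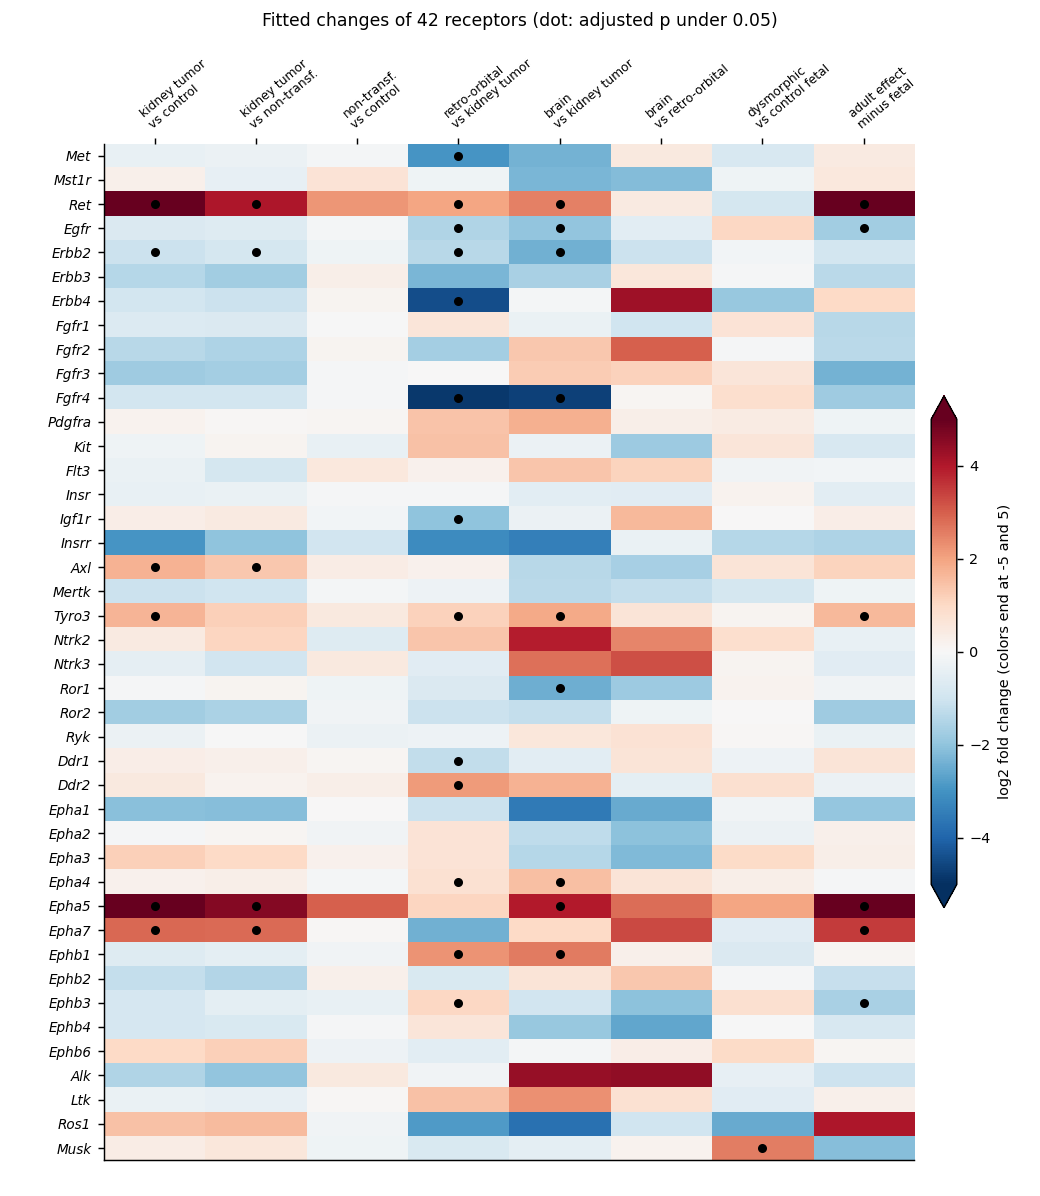
Fitted log2 fold change of each of the 42 receptors (rows) in the 7 comparisons of groups and in the difference of the fusion effect between the adult and the fetal model (columns), with colors ending at -5 and 5 and a dot where the adjusted p was under 0.05. Ret has a dot in 4 of the comparisons of groups, and the comparisons of non-transformed with control kidneys and of brain with retro-orbital tumors have none.

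Ret (ENSMUSG00000030110.13, chr6:118151745-118197718, minus strand; GRCm38, GENCODE M21) encodes the receptor of the GDNF family ligands and is best known from the ureteric bud, the enteric nervous system and thyroid cancers. Its level in the control kidneys was 0.799, 1.03 and 0.946 CPM, and in the non-transformed kidneys of mice 1, 3, 4 and 5 it was 2.06, 10.4, 2.48 and 1.99 CPM. In the kidney tumors of mice 1 to 6 it was 48.2, 30.7, 32.8, 169, 107 and 46.1 CPM. Every kidney tumor was above every adult kidney without tumor.

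Outside the kidney Ret was at its highest. Retro-orbital tumors of mice 2, 3, 5 and 6 had 303, 275, 234 and 357 CPM and brain tumors of mice 1, 2 and 4 had 714, 108 and 348 CPM. The retro-orbital tumors were all above the kidney tumors, while the brain tumor of mouse 2 lay within their range. Means were 0.924 ± 0.115 CPM (SD, n = 3) in control kidneys, 4.24 ± 4.13 CPM (SD, n = 4) in non-transformed kidneys, 72.3 ± 54.9 CPM (SD, n = 6) in kidney tumors, 292 ± 51.8 CPM (SD, n = 4) in retro-orbital tumors and 390.2 ± 305 CPM (SD, n = 3) in brain tumors.

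Ret rose 78.2-fold from the mean of control kidneys to that of kidney tumors, a fitted log2 fold change of 6.30 ± 0.76 (SE, adjusted p = 0.001), and this call held in every alternative tried. Compared to non-transformed kidneys the log2 fold change was 4.06 ± 0.76 (SE, adjusted p = 0.00684), a ratio of means of 17. With the mouse as a block, which uses the 4 mice that gave both tissues, it was 4.60 (adjusted p = 0.0504), just above the threshold.

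The further rise outside the kidney was called in both sites. In retro-orbital compared to kidney tumors Ret was higher by 1.99 ± 0.47 (SE, adjusted p = 0.017), and with the mouse as a block by 2.66 (adjusted p = 0.0257). Without mouse 2, 3 or 6 this call was lost, at 1.82 (adjusted p = 0.0659), 1.87 (adjusted p = 0.0661) and 1.78 (adjusted p = 0.0859). In brain compared to kidney tumors the log2 fold change was 2.52 ± 0.66 (SE, adjusted p = 0.0482), and without mouse 1 it was 1.61 (adjusted p = 0.252). This call was also lost without mouse 2, 3, 5 or 6, at adjusted p-values of 0.0736, 0.0842, 0.0687 and 0.0817, and with the mouse as a block, at 2.26 (adjusted p = 0.334). The brain tumor of mouse 2, with the highest neuron and glia marker sums (735 and 978 CPM), was the lowest of them in Ret.

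A pair of kidney tumor libraries came from each of 5 mice. For Ret these had 48.8 and 47.2 CPM in mouse 1, 43.1 and 19.7 in mouse 2, 17.2 and 47.3 in mouse 3, 131 and 204 in mouse 4 and 45.9 and 43.2 in mouse 6. The largest ratio within a mouse was 2.76, and the highest mouse was 5.49 times the lowest. Every single tumor library was above the highest non-transformed kidney at 10.4 CPM, in mouse 3.

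**Figure D3:**
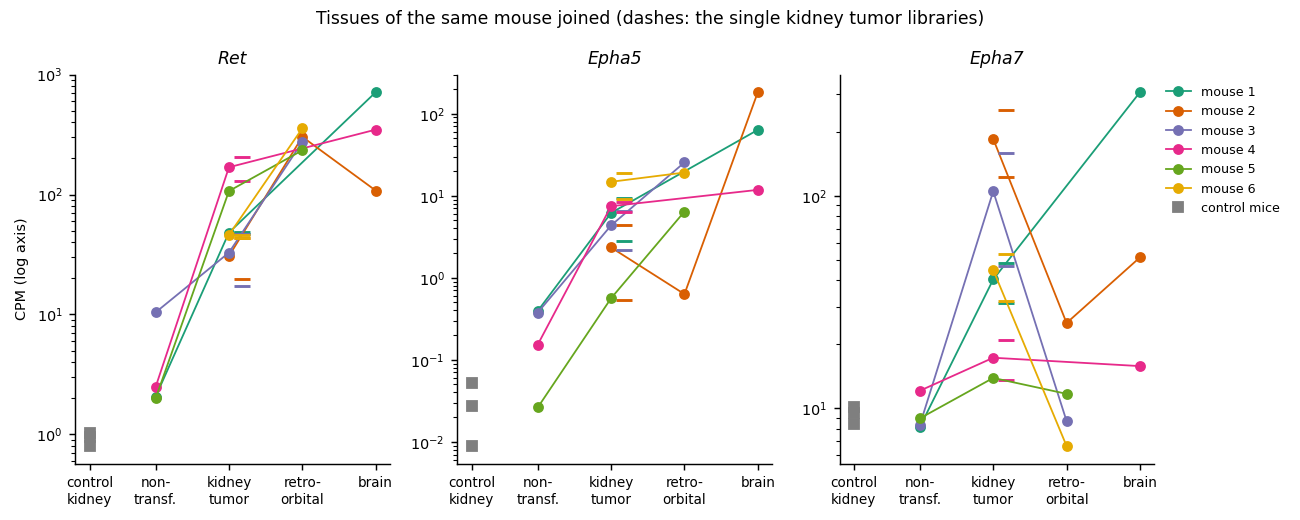
Level of Ret, Epha5 and Epha7 in CPM (log axis) in control kidneys (squares) and in the tissues of each fusion mouse, joined by a line per mouse, with dashes for the single kidney tumor libraries. Ret is higher in kidney tumor than in non-transformed kidney in 4 of 4 mice and in retro-orbital than in kidney tumor in 4 of 4 mice, while Epha7 is lower in retro-orbital than in kidney tumor in each of the latter mice.

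RET binds its ligands together with a GFRA co-receptor. The ligand Gdnf was at 0.00992 to 0.201 CPM in kidney tumors and 0.124 to 0.2 in control kidneys, the ligands Nrtn, Artn and Pspn reached at most 0.684, 0.222 and 1.24 CPM in kidney tumors, and none of them was called in the adult tissues. Gfra1, the co-receptor of GDNF, was at 2.96 to 5.91 CPM in control kidneys and 0.0694 to 3.89 in kidney tumors and was not called (log2 fold change -1.73 ± 1.01 SE, adjusted p = 0.244). Gfra2, the co-receptor of neurturin, rose in kidney tumors compared to control kidneys (log2 fold change 1.88 ± 0.52 SE, adjusted p = 0.034) and compared to non-transformed kidneys (log2 fold change 1.86 ± 0.44 SE, adjusted p = 0.0183), from 0.474 ± 0.208 CPM (SD, n = 3) to 1.72 ± 0.632 CPM (SD, n = 6). Gfra4, the co-receptor of persephin, was higher in brain than in kidney tumors (log2 fold change 3.13 ± 0.60 SE, adjusted p = 0.0209), at 0.503, 1.83 and 0.911 CPM in mice 1, 2 and 4.

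In the fetal kidney, where Ret marks the tips of the ureteric bud, Ret was at 18.9, 29.1 and 31.9 CPM in controls and 5.61, 21.8, 3.29, 2.49 and 42.2 CPM in dysmorphic fetuses 1 to 5. The groups overlapped, and Ret was not called (log2 fold change -0.87 ± 0.89 SE, adjusted p = 0.634). Gdnf was at 5.15, 3.2 and 3.08 CPM in the control and 1.19, 3.8, 1.09, 1.13 and 1.79 CPM in the dysmorphic fetuses and was not called either (log2 fold change -1.13 ± 0.47 SE, adjusted p = 0.226). The effect of the fusion on Ret was larger in the adult tumors than in the fetal kidneys by 7.19 ± 1.24 (SE, adjusted p = 0.00216) on the log2 scale. The summed level of the ureteric bud markers was 9.87 to 20.1 CPM in kidney tumors, 29.3 to 33.4 in control kidneys, 1.54 to 3.9 in retro-orbital tumors and 27, 0.7 and 1.89 in the brain tumors of mice 1, 2 and 4. Among the kidney tumors mice 4 and 5 were highest and mouse 2 lowest in both this sum and Ret, and among the brain tumors mouse 1 was highest in both. The part of such cells in the level of Ret was not tested.

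Axl, Mertk and Tyro3 form the TAM family, which binds GAS6 and protein S and is known for the uptake of dying cells and, for AXL, for drug resistance of tumors. Axl (ENSMUSG00000002602.16, chr7:25757273-25788705, minus strand) was at 32.3, 36.9 and 42.9 CPM in control kidneys, 41.1, 51.7, 55.4 and 39 in non-transformed kidneys and 58.5 to 170 in kidney tumors, with a median of 126. Summed per mouse, every kidney tumor was above every adult kidney without tumor. A single kidney tumor library of mouse 4 was at 52.6 CPM, below the highest non-transformed kidney at 55.4. Axl rose compared to control kidneys by 1.73 ± 0.35 (SE, adjusted p = 0.0116), a 3.27-fold ratio of means, and compared to non-transformed kidneys by 1.35 ± 0.29 (SE, adjusted p = 0.0135). With the mouse as a block the latter was 1.04 (adjusted p = 0.118), which is not a call. The call against control kidneys was lost without control mouse 1 or 2, at 1.64 (adjusted p = 0.0525) and 1.75 (adjusted p = 0.0605), and that against non-transformed kidneys without mouse 1 or 3, at 1.35 (adjusted p = 0.0668) and 1.28 (adjusted p = 0.0687).

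Axl was at 189, 88.2, 152 and 144 CPM in the retro-orbital tumors and was at 26.5, 34.4 and 73 CPM in the brain tumors. Neither site differed from kidney tumors by a call, at 0.20 ± 0.31 (SE, adjusted p = 0.702) and -1.37 ± 0.43 (SE, adjusted p = 0.0761). In the fetal kidneys it was at 51, 43.7 and 51.5 CPM in controls and 89.4, 62.3, 67.8, 99.2 and 73.7 in the dysmorphic group, which did not overlap, and the log2 fold change was 0.64 ± 0.17 (SE, adjusted p = 0.0902). Summed macrophage markers were 64.2 to 96.8 CPM in control kidneys and 149 to 535 in kidney tumors, and summed fibroblast markers 277 to 561 and 1060 to 2530. Both cell types express Axl, and their part in its level was not tested.

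Tyro3 (ENSMUSG00000027298.17, chr2:119797733-119818104, plus strand) was called in 3 comparisons. It was at 2.39, 2.01 and 2.04 CPM in control kidneys, 1.42, 3.51, 4.38 and 2.47 in non-transformed kidneys, 3.89, 5.09, 10.8, 8.96, 7.94 and 4.81 in kidney tumors of mice 1 to 6, 17.5, 14.3, 13.6 and 18 in retro-orbital tumors and 10.2, 32.5 and 29.7 in brain tumors. Summed per mouse, kidney tumors lay above all control kidneys but overlapped the non-transformed kidneys, and retro-orbital tumors lay above all kidney tumors. The single kidney tumor libraries of mouse 4 had 14.2 and 3.55 CPM, the first within the range of the retro-orbital tumors. The log2 fold change was 1.70 ± 0.36 (SE, adjusted p = 0.0141) compared to control kidneys, 1.16 ± 0.28 (SE, adjusted p = 0.0199) in retro-orbital and 1.89 ± 0.42 (SE, adjusted p = 0.0317) in brain compared to kidney tumors. Compared to non-transformed kidneys it was 1.19 ± 0.39 (SE, adjusted p = 0.0579), which became a call with the mouse as a block, at 1.41 (adjusted p = 0.041).

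The calls on Tyro3 depended on single animals. The first was lost without control mouse 2 or 3, at 1.68 (adjusted p = 0.0766) and 1.68 (adjusted p = 0.0729). The retro-orbital call was lost with the block, at 1.24 (adjusted p = 0.063), and without mouse 2 or 6, at 1.04 (adjusted p = 0.0973) and 1.02 (adjusted p = 0.0936). The brain call was lost without any of mice 2, 4, 5 and 6 and was at 1.51 (adjusted p = 0.155) without mouse 2. In the brain tumors of mice 1, 2 and 4 the summed neuron markers were 96.5, 735 and 95.9 CPM and the summed glia markers 31.5, 978 and 365, compared to 1.56 to 27.7 and 26.1 to 84.3 in kidney tumors, and mouse 2 was highest in both sums and in Tyro3. The part of brain cells in its level was not tested. Fetal levels of Tyro3 were 8.94, 5.75 and 12.9 and 7.33, 13.2, 7.46, 12.2 and 11.3 CPM, with overlap (log2 fold change 0.12 ± 0.31 SE, adjusted p = 0.874), and the fusion effect was larger in the adult by 1.61 ± 0.47 (SE, adjusted p = 0.0456). With RLE in place of TMM scaling factors the difference was at 1.52 (adjusted p = 0.0583), and it was lost without fusion mouse 3, 4 or 6, dysmorphic fetus 1, 3, 4 or 5, and each control mouse and control fetus, at adjusted p-values of 0.0511 to 0.176.

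Mertk was at 197 to 222 CPM in control kidneys and 50 to 193 in kidney tumors and was not called (log2 fold change -1.08 ± 0.41 SE, adjusted p = 0.0941). Per length, Axl, Mertk and Tyro3 stood at 7.42, 48.8 and 0.346 CPM/kb in control kidneys, 24.3, 22.7 and 1.12 in kidney tumors and 28.5, 19.8 and 2.55 in retro-orbital tumors. The ligand Gas6 was at 229 to 235 CPM in control kidneys and 217 to 499 in kidney tumors and was not called (log2 fold change 0.65 ± 0.30 SE, adjusted p = 0.155). Pros1, which encodes protein S, rose from 52.6 ± 8.82 CPM (SD, n = 3) to 120.2 ± 35.5 CPM (SD, n = 6) (log2 fold change 1.22 ± 0.30 SE, adjusted p = 0.0236).

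Eph receptors bind ephrins on neighbouring cells, A-type receptors mostly the ephrin A and B-type the ephrin B group. Epha5 (ENSMUSG00000029245.16, chr5:84054761-84417382, minus strand), known from axon guidance, was close to the floor of 3 counts in adult kidney, where the control mice had 11, 6 and 2 raw counts. That is 0.0526, 0.0277 and 0.00889 CPM, and the last is under the floor. Non-transformed kidneys had 0.394, 0.376, 0.153 and 0.0262 CPM and the kidney tumors of mice 1 to 6 had 6.18, 2.34, 4.35, 7.46, 0.563 and 14.8 CPM. All kidney tumors lay above all adult kidneys without tumor.

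Retro-orbital tumors had 0.632, 25.5, 6.42 and 19.2 CPM and brain tumors 63.6, 183 and 11.8 CPM of Epha5. In kidney tumors it rose compared to control kidneys by 7.65 ± 1.26 (SE, adjusted p = 0.00507), a call that held in every alternative tried, though its size rests on the 19 counts of the control mice. Compared to non-transformed kidneys it rose by 4.60 ± 1.0 (SE, adjusted p = 0.0135) and by 4.31 (adjusted p = 0.0131) with the mouse as a block, and the unblocked call was lost without mouse 1, 3 or 4, at 4.94 (adjusted p = 0.0609), 4.97 (adjusted p = 0.0606) and 4.35 (adjusted p = 0.0543). Retro-orbital and kidney tumors overlapped (log2 fold change 1.07 ± 0.92 SE, adjusted p = 0.448).

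The brain tumors were higher in Epha5 than the kidney tumors by 3.96 ± 0.95 (SE, adjusted p = 0.0371), with the lowest of them, mouse 4, within the range of the kidney tumors. With the mouse as a block it was 3.46 (adjusted p = 0.416). Without mouse 1, 2 or 3 the call was lost, at 4.12 (adjusted p = 0.105), 2.60 (adjusted p = 0.197) and 3.86 (adjusted p = 0.0758). Brain expresses Epha5, and the summed neuron markers were 96.5, 735 and 95.9 CPM in the brain tumors of mice 1, 2 and 4 compared to 1.56 to 27.7 in kidney tumors. The summed glia markers were 31.5, 978 and 365 CPM. How much of the level came from brain cells was not tested.

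Fetal Epha5 was at 2.97, 5.52 and 4.86 CPM in controls and 10.7, 11.5, 26.3, 9.56 and 32.4 CPM in dysmorphic kidneys. All dysmorphic kidneys lay above all controls, but the difference was not called (log2 fold change 1.97 ± 0.51 SE, adjusted p = 0.081). The fusion effect was larger in the adult by 5.72 ± 1.17 (SE, adjusted p = 0.00746). Its ligand Efna5 was at 6.74 to 11 CPM in control kidneys, 2 to 13.3 in kidney tumors and 12.6 to 21 in retro-orbital tumors and was not called in any comparison of these groups.

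Epha7 (ENSMUSG00000028289.12, chr4:28813131-28967499, plus strand), a receptor of developing brain and limb, was at 8.45, 10.1 and 9.47 CPM in control kidneys and 8.17, 8.35, 12.1 and 8.97 in non-transformed kidneys. In the kidney tumors of mice 1 to 6 it was 40.4, 185, 105, 17.3, 13.9 and 44.7 CPM, all above the adult kidneys without tumor. In retro-orbital tumors it was 25.2, 8.71, 11.7 and 6.65 CPM and in brain tumors 307, 51.3 and 15.8 CPM, and both ranges overlapped that of kidney tumors. Summed nephron progenitor markers were 5.54 to 6.58 CPM in control kidneys, 54.5, 362, 178, 62.1, 10.2 and 70.1 in the kidney tumors of mice 1 to 6, 11.9 to 20.5 in retro-orbital tumors and 666, 231 and 27.3 in the brain tumors of mice 1, 2 and 4. Mouse 2 was highest and mouse 5 lowest in both Epha7 and this sum among the kidney tumors, and the brain tumors had the same order in both. Neuron sums in the brain tumors were 96.5, 735 and 95.9 CPM and glia sums 31.5, 978 and 365. The part of these cells in the level of Epha7 was not tested.

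The rise of Epha7 was 2.88 ± 0.86 (SE, adjusted p = 0.0457) compared to control kidneys and 2.82 ± 0.73 (SE, adjusted p = 0.0277) compared to non-transformed kidneys. Both calls were fragile. With the mouse as a block the second was 1.70 (adjusted p = 0.177). The first was lost without any control mouse, with adjusted p-values of 0.131, 0.145 and 0.147 without mouse 1, 2 and 3, and without fusion mouse 1, 2, 3 or 6, at 3.01 (adjusted p = 0.0524), 2.28 (adjusted p = 0.0554), 2.71 (adjusted p = 0.077) and 2.97 (adjusted p = 0.0607). The second was lost without mouse 1 or 3, at 2.87 (adjusted p = 0.0989) and 2.60 (adjusted p = 0.134).

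Retro-orbital tumors were lower in Epha7 than the kidney tumor of the same mouse in 4 of 4 mice, but the difference was not called (log2 fold change -2.41 ± 0.78 SE, adjusted p = 0.0589). Fetal Epha7 was at 62.1, 34.3 and 44.1 CPM in controls and 19.8, 29.8, 49.9, 27.4 and 37 in the dysmorphic group (log2 fold change -0.56 ± 0.30 SE, adjusted p = 0.348). The fusion effect was larger in the adult by 3.50 ± 0.95 (SE, adjusted p = 0.0327), a call lost without fusion mouse 3, dysmorphic fetus 1 or 4, and each control mouse and control fetus, at adjusted p-values of 0.0555 to 0.0889. Libraries of the same mouse differed by up to 3.4 times, and the highest mouse was 13.3 times the lowest.

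Epha4 and Ephb1 were called between tumor sites and not between kidney tumors and kidneys without tumor. Epha4 (ENSMUSG00000026235.14, chr1:77367185-77515088, minus strand), which binds both groups of ephrins, was at 11.7, 11.1 and 13.4 CPM in control kidneys, 9.71, 14.7, 10.7 and 9.5 in non-transformed kidneys and 9.51 to 19.3 in kidney tumors with a median of 14.2. Retro-orbital tumors had 20.9, 35.3, 20.7 and 21.2 CPM, all above the kidney tumors summed per mouse, and brain tumors 60.9, 34.4 and 15.8, with overlap. A single kidney tumor library of mouse 4 was at 25.7 CPM, within the range of the retro-orbital tumors. The log2 fold change was 0.78 ± 0.23 (SE, adjusted p = 0.0441) in retro-orbital and 1.5 ± 0.38 (SE, adjusted p = 0.0443) in brain compared to kidney tumors, and neither call held with the mouse as a block, at 0.94 (adjusted p = 0.0771) and 1.35 (adjusted p = 0.473).

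The retro-orbital call on Epha4 was also lost without mouse 1, 2, 3, 5 or 6, with the largest shift without mouse 3, at 0.49 (adjusted p = 0.219). The brain call was lost without mouse 1, 2, 3, 5 or 6, with the largest shift without mouse 1, at 0.89 (adjusted p = 0.239). Neuron sums were 95.9 to 735 CPM and glia sums 31.5 to 978 in the brain tumors, highest in mouse 2, while Epha4 was highest in mouse 1. The part of brain cells was not tested. Fetal Epha4 was at 42.7, 17.2 and 17.8 CPM in controls and 28.3, 26.7, 31.5, 47.8 and 30.4 CPM in the dysmorphic group, with overlap (log2 fold change 0.30 ± 0.34 SE, adjusted p = 0.673).

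Ephb1 (ENSMUSG00000032537.15, chr9:101922128-102354693, minus strand), a receptor of ephrin B ligands, was at 5.3, 5.63 and 6.52 CPM in control kidneys, 3.88, 5.17, 6.43 and 4.71 in non-transformed kidneys and 1.52 to 7.08 in kidney tumors with a median of 3.19. Retro-orbital tumors had 17.5, 26.7, 11.6 and 16.3 CPM, all above the kidney tumors, and brain tumors 31.2, 24.3 and 6.38 CPM, with mouse 4 within their range. The rise was 2.26 ± 0.39 (SE, adjusted p = 0.00466) in retro-orbital tumors, a call kept in every alternative tried, and 2.58 ± 0.55 (SE, adjusted p = 0.0265) in brain tumors. The latter was lost without mouse 1, 2 or 3, at 2.12 (adjusted p = 0.116), 2.41 (adjusted p = 0.114) and an adjusted p of 0.0559 without mouse 3, and with the mouse as a block, at 2.34 (adjusted p = 0.357). It was highest in mouse 1, while the neuron and glia sums were highest in mouse 2, at 735 and 978 CPM, and their part in this rise was not tested. Fetal levels were 7.4, 5.87 and 9.59 CPM in controls and 3.06, 5.51, 2.65, 3.4 and 9.48 CPM in dysmorphic kidneys, with overlap (log2 fold change -0.71 ± 0.43 SE, adjusted p = 0.407).

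Of the remaining Eph receptors only Ephb3 was called. It rose in retro-orbital compared to kidney tumors, 8.86 to 15.4 compared to 3.33 to 7.62 CPM (log2 fold change 1.02 ± 0.27 SE, adjusted p = 0.0253), and the effect of the fusion on it was lower in the adult than in the fetal model, by a difference of -1.64 ± 0.43 (SE, adjusted p = 0.0274). The first of these was lost without mouse 2, 3 or 5, at adjusted p-values of 0.0809, 0.0916 and 0.0594, and the second without control mouse 2 or 3, dysmorphic fetus 1 or control fetus 2 or 3, at 0.0508 to 0.0916. Of the 8 ephrin genes, 2 were called in retro-orbital and 4 in brain compared to kidney tumors, where 17.7% and 8.74% of all genes were. Efnb2, a ligand of EPHB receptors, was higher in retro-orbital than in kidney tumors (log2 fold change 1.77 ± 0.24 SE, adjusted p = 0.00176), where the endothelial sums (871 to 1310 compared to 349 to 634 CPM) were higher as well, and Efnb1 was lower there (log2 fold change -0.89) and in the brain (log2 fold change -2.01). In brain tumors Efnb3 was higher (log2 fold change 4.99 ± 1.14 SE, adjusted p = 0.0328) and Efna1 lower (log2 fold change -2.19 ± 0.38 SE, adjusted p = 0.016) than in kidney tumors. Efna3 was higher there than in kidney tumors (log2 fold change 3.43) and in retro-orbital tumors (log2 fold change 3.45). Neuron sums were 95.9 to 735 CPM in brain and 1.56 to 27.7 in kidney tumors, and glia sums 31.5 to 978 and 26.1 to 84.3. The part of brain cells in these ephrin levels was not tested.

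**Figure D4:**
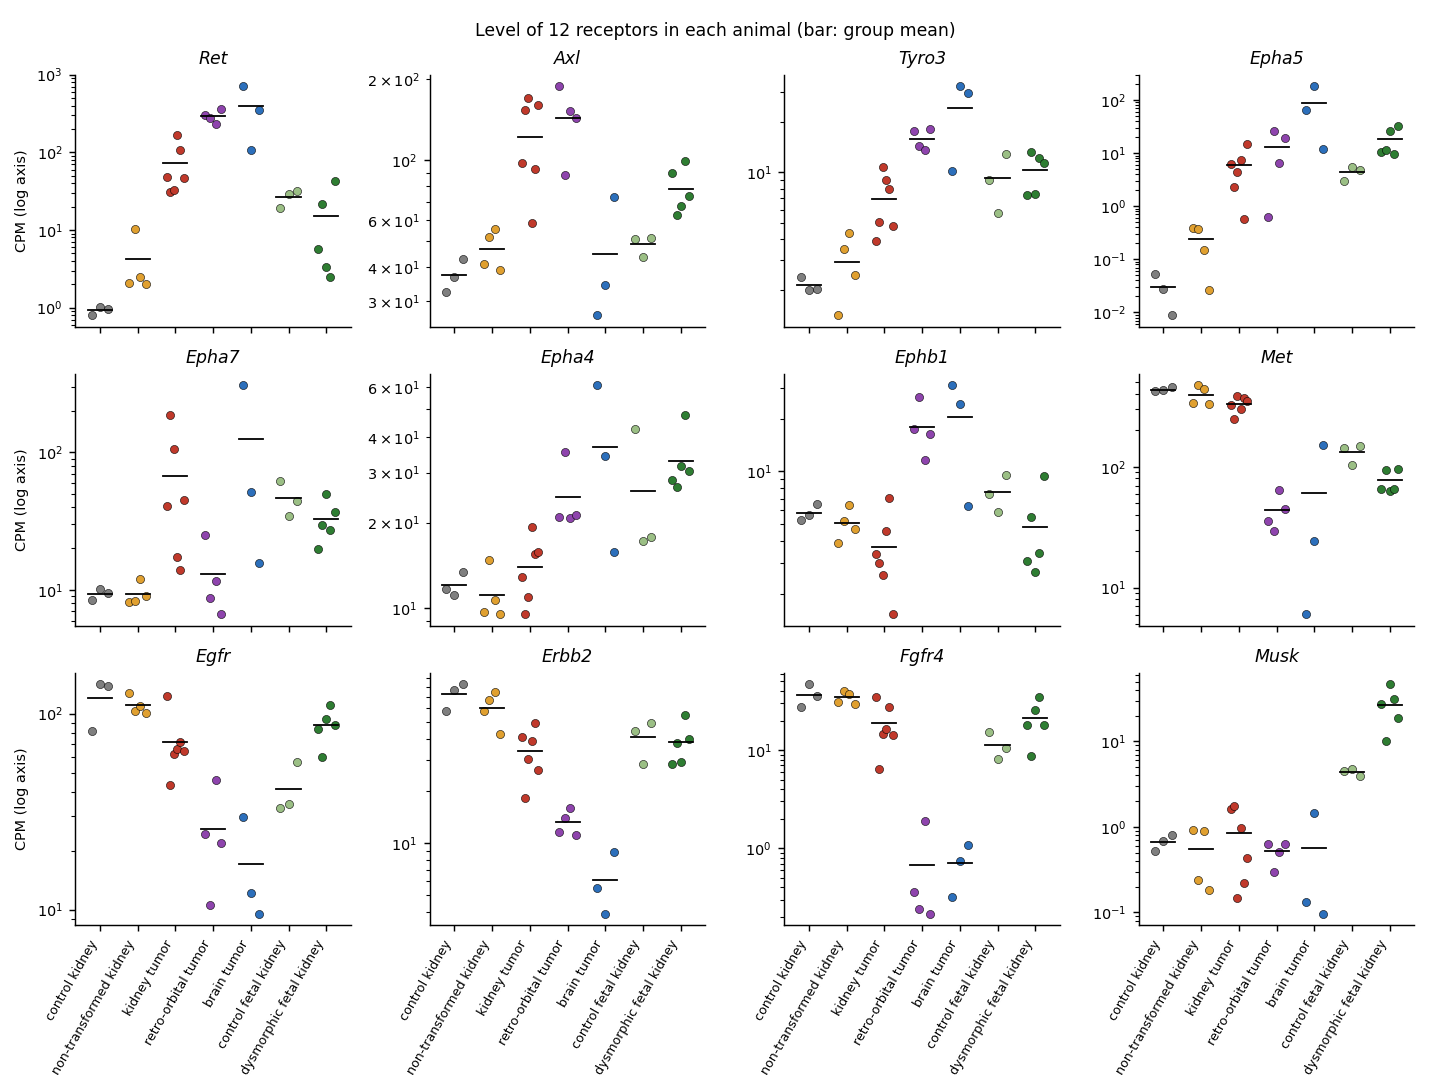
Level in CPM (log axis) of 12 receptors, the 11 described with every animal and Met, in each of the 7 groups, with a point per animal and a bar for the group mean. By group mean, Ret, Tyro3 and Ephb1 are highest in the retro-orbital and brain tumors, and Fgfr4, Erbb2 and Met are lowest there.

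Met, Egfr, Erbb2 and Fgfr4 had their lowest group means outside the kidney. Proximal and distal tubule markers had lower means there too, with proximal sums of 631 to 7370 CPM in kidney tumors, 114 to 1010 in retro-orbital and 272 to 726 in brain tumors, and mean distal sums of 2020, 166 and 95.7 CPM. Mean collecting duct sums were 390, 366 and 399 CPM in the same groups, whose ranges overlapped. The part of remaining tubule in the falls of these receptors and of Erbb4, Igf1r and Ddr1 was not tested. Met (ENSMUSG00000009376.15, chr6:17463800-17573980, plus strand), the receptor of HGF and a known target of MiT/TFE fusions in soft tissue sarcoma, was at 421, 431 and 454 CPM in control kidneys and 329.6 ± 49.5 CPM (SD, n = 6) in kidney tumors. Summed per mouse, the tumors lay below all controls, but this was not called (log2 fold change -0.38 ± 0.15 SE, adjusted p = 0.0962). A single kidney tumor library of mouse 3 was at 439 CPM, within the range of the controls. In retro-orbital tumors Met was 35.3, 29.3, 64.7 and 44.9 CPM and in brain tumors 6.02, 24.2 and 151 CPM, all below every kidney tumor. It fell in retro-orbital compared to kidney tumors with a log2 fold change of -2.95 ± 0.25 (SE, adjusted p = 0.000801), and the mean of kidney tumors was 7.57 times higher, a call kept in every alternative tried. In brain tumors the log2 fold change was -2.38 ± 0.82 (SE, adjusted p = 0.0971). The ligand Hgf was at 10 to 52.7 CPM in kidney tumors and 20.5 to 36.2 in retro-orbital tumors and was not called (log2 fold change 0.11 ± 0.40 SE, adjusted p = 0.879).

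The ERBB receptors bind ligands of the EGF family, except ERBB2, which has no ligand of its own and pairs with the others. Egfr (ENSMUSG00000020122.16, chr11:16752203-16918158, plus strand) was at 81.4, 141 and 139 CPM in control kidneys, 127, 103, 109 and 101 in non-transformed kidneys and 123, 43.2, 62, 66.3, 72 and 64.2 in kidney tumors of mice 1 to 6. Retro-orbital tumors had 24.3, 10.5, 45.9 and 21.8 CPM and brain tumors 29.7, 12.2 and 9.55 CPM. The kidney groups overlapped and were not called (log2 fold change -0.72 ± 0.31 SE, adjusted p = 0.125 compared to control kidneys). The brain tumors lay below all kidney tumors, and the retro-orbital tumor of mouse 5 within their range.

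Egfr fell compared to kidney tumors with a log2 fold change of -1.52 ± 0.41 (SE, adjusted p = 0.0306) in retro-orbital and -1.97 ± 0.46 (SE, adjusted p = 0.0344) in brain tumors. The first was -1.37 (adjusted p = 0.0607) and the second -2.18 (adjusted p = 0.267) with the mouse as a block. Without mouse 2, 3, 4 or 6 the retro-orbital call was lost, at -1.60 (adjusted p = 0.0832), -1.30 (adjusted p = 0.0883), -1.49 (adjusted p = 0.0505) and -1.47 (adjusted p = 0.115). The brain call was lost without any of mice 2 to 6 and was at -1.88 (adjusted p = 0.112) without mouse 2.

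Fetal Egfr was at 33, 34.7 and 56.5 CPM in control and 83.3, 59.8, 94.2, 110 and 87.8 in dysmorphic fetuses, all above the controls. This was not called (log2 fold change 1.02 ± 0.25 SE, adjusted p = 0.0695) but was with the shared prefix of the sample titles as a block, at 1.02 (adjusted p = 0.0488). The fusion effect was lower in the adult than in the fetal model, with a difference of -1.72 ± 0.42 (SE, adjusted p = 0.0192) on the log2 scale, a call lost without control mouse 2 or 3, at -1.60 (adjusted p = 0.0632) and -1.61 (adjusted p = 0.0606), or without control fetus 2, at -1.71 (adjusted p = 0.0545).

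Erbb2 (ENSMUSG00000062312.5, chr11:98412470-98437716, plus strand) was at 58.3, 76.3 and 82.8 CPM in control kidneys, 57.9, 67.3, 74.7 and 42.8 in non-transformed kidneys and 41.1, 18.1, 30.4, 39.1, 49.2 and 26.4 in kidney tumors of mice 1 to 6. It was at 11.5, 14, 16 and 11.1 CPM in retro-orbital and 5.47, 3.9 and 8.87 CPM in brain tumors. Summed per mouse, kidney tumors lay below all control kidneys, retro-orbital tumors below all kidney tumors and brain tumors below all retro-orbital tumors. A single kidney tumor library of mouse 2 was at 15.3 CPM, within the range of the retro-orbital tumors. The log2 fold change was -1.07 ± 0.28 (SE, adjusted p = 0.0279) compared to control kidneys, -0.87 ± 0.26 (SE, adjusted p = 0.047) compared to non-transformed kidneys, -1.40 ± 0.27 (SE, adjusted p = 0.00759) in retro-orbital compared to kidney tumors and -2.40 ± 0.40 (SE, adjusted p = 0.014) in brain compared to kidney tumors.

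Among the kidney tumors Erbb2 was higher in mice 1, 4 and 5 than in mice 2, 3 and 6. Distal tubule marker sums split alike, at 1020, 4330 and 6410 compared to 240, 70.6 and 22.6 CPM. The part of remaining tubule in the fall of Erbb2 in kidney tumors was not tested. The retro-orbital call on Erbb2 held in every alternative tried. The brain call was lost with the block, at -2.37 (adjusted p = 0.267), and without mouse 1, at -2.30 (adjusted p = 0.063). That against non-transformed kidneys was lost with the block, at -0.63 (adjusted p = 0.185), and without mouse 1, 3, 4 or 6, at -0.95 (adjusted p = 0.109), -0.78 (adjusted p = 0.194), -0.80 (adjusted p = 0.124) and -0.81 (adjusted p = 0.0791). That against control kidneys was lost without mouse 3 or 6 and without each control mouse, at -1.04 (adjusted p = 0.0548), -1.01 (adjusted p = 0.0508), -1.20 (adjusted p = 0.0526), -1.01 (adjusted p = 0.114) and -0.95 (adjusted p = 0.123). Fetal levels were 44.4, 28.8 and 49.3 CPM in controls and 28.7, 37.7, 29.3, 55.2 and 40 CPM in dysmorphic kidneys, with overlap (log2 fold change -0.14 ± 0.26 SE, adjusted p = 0.801). The exons of Erbb2 share 9 bases with Mien1 on the opposite strand, and whether counting used strand is not known.

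Erbb4, a receptor of neuregulins, fell in retro-orbital tumors to 0.622, 1.57, 7.9 and 0.833 CPM from 17.8 to 114 in kidney tumors (log2 fold change -4.42 ± 0.89 SE, adjusted p = 0.0089), and was at 1.34, 138 and 12.6 CPM in brain tumors. Without mouse 3 this was -4.31 (adjusted p = 0.0517). Of the 11 genes of EGF family ligands and neuregulins in the list of ligands, 10 were tested in retro-orbital compared to kidney tumors, and 4 were called, all lower, where 9.45% of all genes were lower. These were Tgfa (log2 fold change -3.55), Areg (log2 fold change -2.18), Btc (log2 fold change -1.57) and Hbegf (log2 fold change -1.10). Mean proximal and distal tubule sums were 3160 and 2020 CPM in kidney tumors and 378 and 166 in retro-orbital tumors. The part of remaining tubule in the levels of these ligands was not tested. Areg rose in kidney tumors compared to control kidneys (log2 fold change 3.67 ± 0.71 SE, adjusted p = 0.00989), at no more than 0.441 CPM, and Btc fell in brain compared to kidney tumors (log2 fold change -3.07).

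Among the FGF receptors the calls were on Fgfr4 (ENSMUSG00000005320.9, chr13:55152640-55168759, plus strand), the receptor that acts with beta-Klotho for endocrine FGFs. It was at 27.4, 46.7 and 35.5 CPM in control kidneys, 31.1, 39.9, 37 and 29.7 in non-transformed kidneys and 34.3, 6.47, 14.5, 16.5, 27.4 and 14.2 in kidney tumors of mice 1 to 6. Retro-orbital tumors had 0.358, 0.243, 1.91 and 0.217 CPM and brain tumors 0.323, 0.749 and 1.07 CPM, all below the kidney tumors. Fgfr4 fell with a log2 fold change of -4.81 ± 0.84 (SE, adjusted p = 0.00501) in retro-orbital tumors, where the mean of kidney tumors was 27.7 times higher, and of -4.65 ± 0.68 (SE, adjusted p = 0.00973) in brain tumors.

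The retro-orbital call on Fgfr4 held in every alternative tried, and the brain call in all but the block, at -4.47 (adjusted p = 0.29). Kidney tumors did not differ from control kidneys by a call (log2 fold change -0.93 ± 0.44 SE, adjusted p = 0.157). In fetal kidneys it was at 15.4, 8.07 and 10.4 CPM in controls and 18, 8.7, 25.3, 35.1 and 17.9 CPM in the dysmorphic group, with overlap (log2 fold change 0.85 ± 0.43 SE, adjusted p = 0.313). Klb, which encodes beta-Klotho, was at 0.0957, 0.0647 and 0.0978 CPM in control kidneys and 0.161 to 4.59 in kidney tumors (log2 fold change 4.14 ± 1.16 SE, adjusted p = 0.0368) and fell in retro-orbital tumors (log2 fold change -3.68 ± 1.02 SE, adjusted p = 0.033). The ligand Fgf7, which acts on FGFR2, rose in kidney tumors compared to control kidneys (log2 fold change 2.44), in retro-orbital compared to kidney tumors (log2 fold change 2.67) and in dysmorphic compared to control fetal kidneys (log2 fold change 1.73), while Fgf1 fell in retro-orbital tumors (log2 fold change -3.56).

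The insulin and IGF receptors were among the more abundant members. Igf1r was at 237 to 613 CPM in kidney tumors and 121, 110, 130 and 87.6 CPM in retro-orbital tumors, and fell with a log2 fold change of -2.0 ± 0.30 (SE, adjusted p = 0.00276), a call kept in every alternative tried. In brain tumors it was at 546, 93.6 and 364 CPM (log2 fold change -0.30 ± 0.50 SE, adjusted p = 0.745). Insr was at 235 to 256 CPM in control kidneys, 152 to 208 in kidney tumors (log2 fold change -0.37 ± 0.12 SE, adjusted p = 0.0592) and 142 to 205 in retro-orbital tumors (log2 fold change -0.06 ± 0.13 SE, adjusted p = 0.778), and was not called. Igf1, the ligand of IGF1R, rose from 18.6 ± 1.89 CPM (SD, n = 3) in control kidneys to 71.2 ± 36.3 CPM (SD, n = 6) in kidney tumors (log2 fold change 1.96 ± 0.49 SE, adjusted p = 0.0256), also compared to non-transformed kidneys (log2 fold change 1.86), fell in brain compared to kidney tumors (log2 fold change -2.47) and rose in dysmorphic compared to control fetal kidneys (log2 fold change 1.11).

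Of the receptors of matrix and mesenchymal cells, Ddr2 rose and Ddr1 fell in retro-orbital tumors. Ddr2, a receptor of fibrillar collagen, was at 4.98 to 55 CPM in kidney and 130, 92.1, 107 and 141 CPM in retro-orbital tumors (log2 fold change 2.12 ± 0.52 SE, adjusted p = 0.0199), and its epithelial relative Ddr1 was at 49.2 to 105 and 24.6 to 39.3 CPM (log2 fold change -1.24 ± 0.24 SE, adjusted p = 0.00685). Summed per mouse, the groups did not overlap for either gene. A single kidney tumor library of mouse 2 was at 38.5 CPM of Ddr1, within the range of the retro-orbital tumors. The call on Ddr2 was lost with the mouse as a block, at 2.78 (adjusted p = 0.0575), and without mouse 2 or 3, at 2.09 (adjusted p = 0.0862) and 2.06 (adjusted p = 0.0634). That on Ddr1 held in every alternative tried. Pdgfra was at 13.2 to 139 CPM in kidney and 207, 337, 89.6 and 214 CPM in retro-orbital tumors (log2 fold change 1.41 ± 0.59 SE, adjusted p = 0.125) and Kit at 14.8 to 61.7 and 141, 128, 37.3 and 68.4 CPM (log2 fold change 1.47 ± 0.48 SE, adjusted p = 0.059), neither of them called, while Kitl, the ligand of KIT, rose (log2 fold change 1.24 ± 0.24 SE, adjusted p = 0.0075). Summed fibroblast markers were 1060 to 2530 CPM in kidney tumors and 2000 to 4310 in retro-orbital tumors, and their part in these values was not tested.

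Receptors of the nervous system were uneven in the brain tumors. Ntrk2, the receptor of BDNF, was at 3.62, 250 and 54.8 CPM in the tumors of mice 1, 2 and 4, Ntrk3 at 4.14, 70.9 and 3.67 CPM and Alk at 0.171, 6.85 and 0.533 CPM. Each was highest in mouse 2, the sample with the highest neuron and glia marker sums, and none was called compared to kidney tumors, at 3.94 ± 1.09 (SE, adjusted p = 0.0543), 2.75 ± 0.89 (SE, adjusted p = 0.0829) and 4.36 ± 1.22 (SE, adjusted p = 0.0567). Ror1, a Wnt5a receptor, was at 16.2 to 44.1 CPM in kidney tumors and fell to 5.37, 3.3 and 4.37 CPM in brain tumors (log2 fold change -2.45 ± 0.37 SE, adjusted p = 0.0108), and without mouse 2 was at -2.31 (adjusted p = 0.0568). Its ligand Wnt5a rose in kidney tumors compared to control kidneys (log2 fold change 1.34) and fell in brain compared to kidney tumors (log2 fold change -1.09). Ngfr, the neurotrophin co-receptor and a neural crest marker, rose from 0.304 ± 0.0568 CPM (SD, n = 3) in control kidneys to 13.5 ± 7.59 CPM (SD, n = 6) in kidney tumors (log2 fold change 5.48 ± 0.64 SE, adjusted p = 0.000881) and further in retro-orbital tumors (log2 fold change 1.81 ± 0.44 SE, adjusted p = 0.019). Summed melanocyte and Schwann cell markers, of which 2 of 5 had over 3 counts in every kidney tumor and 2 of 5 in every retro-orbital tumor, were 0.448 to 0.741 CPM in control kidneys, 0.905 to 1.66 in the kidney tumors of all mice but mouse 4, with a mean of 37.3 over all 6, and 4.79 to 135 in retro-orbital tumors. Among the kidney tumors mouse 4 was highest in both this sum and Ngfr, and the part of these cells was not tested.

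With the mouse as a block, none of the 9 brain calls held, and none of 21827 genes tested was called, with 13 members at an unadjusted p under 0.05. Only 3 mice gave both tissues. Leaving out mouse 2, whose brain tumor had the highest neuron and glia sums, left 2 calls, Erbb2 at -2.31 (adjusted p = 0.0338) and Fgfr4 at -4.88 (adjusted p = 0.0317).

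A further set of receptors was uncalled but uneven among the kidney tumors. It was chosen after the values were seen and holds Erbb3, Fgfr2, Fgfr3, Insrr, Epha1 and Ephb2. Insrr was at 2.71, 0.291, 0.2, 20.1, 5.51 and 0.0793 CPM in kidney tumors of mice 1 to 6, and 20.5, 49 and 42.7 in control kidneys. Erbb3 was at 22.1, 6.18, 5.97, 40.1, 51.3 and 5.64 CPM and Epha1 at 3.28, 0.535, 0.473, 12, 10.7 and 0.327 CPM in the same tumors. For each of the 6 genes the kidney tumors of mice 1, 4 and 5 were higher than those of mice 2, 3 and 6, and these are also the tumors with the higher distal marker sums (1020, 4330 and 6410 compared to 240, 70.6 and 22.6 CPM). The part of remaining tubule in these levels was not tested. Epha1 shares 6.01% of its exon bases with Zyx on the opposite strand and Fgfr2 314 bases with Ctbp2 on the same strand, so some reads may be ambiguous.

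**Figure D5:**
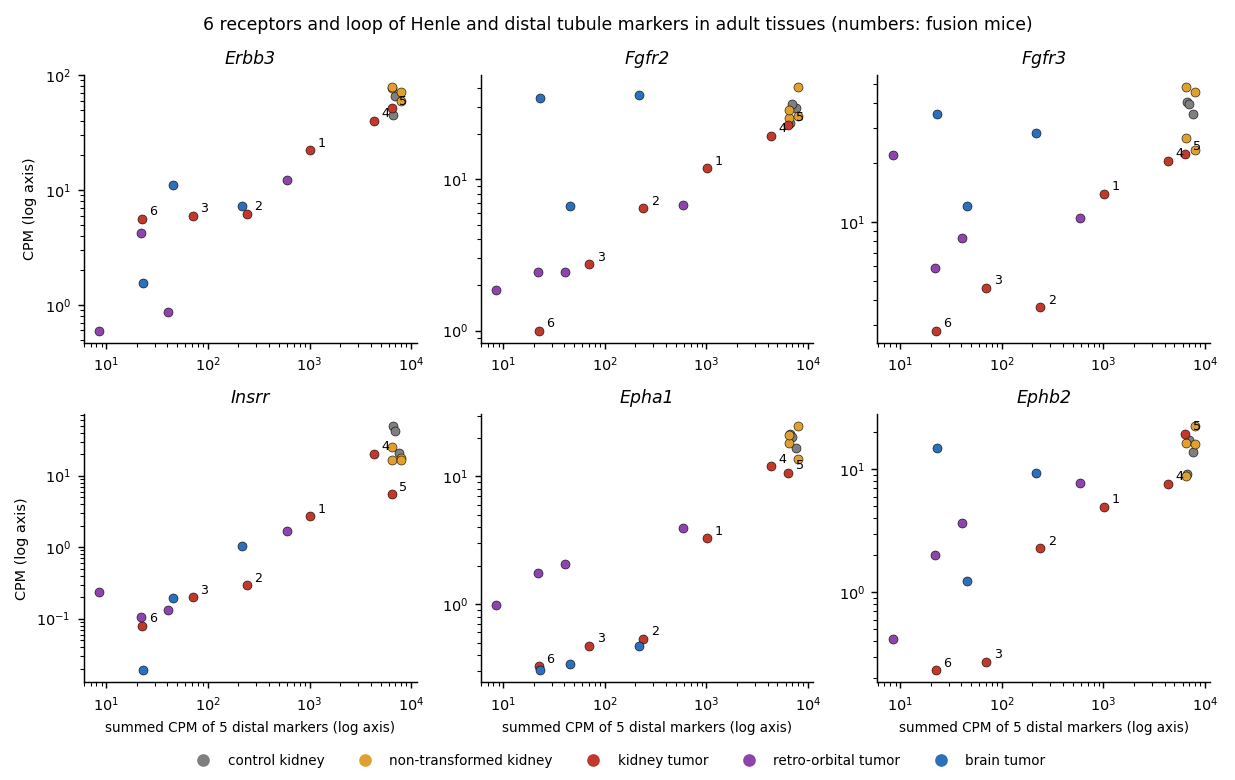
Level in CPM of 6 receptors chosen after their values were seen, against the summed CPM of 5 markers of the loop of Henle and distal tubule (both axes log), with a point per adult sample colored by group and the mouse number beside each kidney tumor. For each receptor the kidney tumors of mice 1, 4 and 5 lie above those of mice 2, 3 and 6 on both axes.

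Between non-transformed and control kidneys edgeR called no member, and DESeq2 called 2. Of the 42 members, 19 had a log2 fold change above 0, and the median was -0.05 compared to 0.03 for all genes. Ret did not overlap, at 2.06, 10.4, 2.48 and 1.99 compared to 0.799, 1.03 and 0.946 CPM, but was not called (log2 fold change 2.21 ± 0.63 SE, adjusted p = 0.256). Epha5 was higher by 3.00 ± 0.92 (SE, adjusted p = 0.283), at no more than 0.394 CPM, and Axl by 0.36 ± 0.15 (SE, adjusted p = 0.404). The non-transformed kidneys also held 116 to 475 CPM of the fusion target genes, and the share of fusion-bearing cells in them was not measured.

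In the fetal kidneys the only call was Musk (ENSMUSG00000057280.15, chr4:58285960-58374303, plus strand), the receptor of agrin at the neuromuscular junction. It was at 4.48, 4.71 and 3.96 CPM in controls and 27, 10.2, 46.4, 31 and 18.7 CPM in dysmorphic fetuses 1 to 5, all above the controls, a 6.08-fold ratio of means and a log2 fold change of 2.55 ± 0.47 (SE, adjusted p = 0.0389). Over the adult groups it was at most 1.73 CPM. All 5 skeletal muscle markers had over 3 counts in every fetal sample, and their summed level was 1070 to 1260 CPM in controls and 2500 to 5730 in the dysmorphic group. The part of muscle in the level of Musk was not tested. The call was lost with the title prefix as a block, at 2.57 (adjusted p = 0.0527), with sex as a covariate, at 2.52 (adjusted p = 0.0624), and without dysmorphic fetus 1, 3 or 4 or any control, over an adjusted p of 0.0794 without dysmorphic fetus 3 to 0.172 without control fetus 2. The log2 fold change of its co-receptor Lrp4 was 0.71 ± 0.31 (SE, adjusted p = 0.253) and that of its ligand Agrn -0.28 ± 0.28 (SE, adjusted p = 0.622).

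Met, Epha3 and Ddr2 were near the threshold in the fetal kidneys. Met was at 142, 103 and 149 CPM in controls and 66.1, 94.9, 62.9, 66 and 96.1 CPM in dysmorphic kidneys, all below the controls (log2 fold change -0.81 ± 0.20 SE, adjusted p = 0.0723). Ros1, an orphan receptor that binds NELL proteins, was at 37.4, 345 and 298 and 2.14, 11.2, 3.78, 0.959 and 190 CPM, so it spread widely in both groups and was not called (log2 fold change -2.51 ± 1.63 SE, adjusted p = 0.434). Epha3 was higher by 0.95 ± 0.20 (SE, adjusted p = 0.0532) and Ddr2 by 0.80 ± 0.18 (SE, adjusted p = 0.0575), neither of them called. Summed fibroblast markers were 4400 to 5830 CPM in control and 8670 to 19600 in dysmorphic kidneys, and their part was not tested. Proximal tubule sums were 1110 to 1340 CPM in control and 43.1 to 832 in dysmorphic kidneys. Mean distal sums were 419 and 31.3 CPM, with overlapping ranges. The part of tubule in these values was not tested.

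The partners of the receptors were read from lists of 50 ligands, 11 co-receptors, 21 adaptors and 20 MAPK feedback genes. Over all genes 19.0, 17.1, 0.00952, 17.7, 8.74, 1.73 and 2.67% were called in the 7 comparisons, in the order kidney tumors compared to control and to non-transformed kidneys, non-transformed compared to control kidneys, retro-orbital and brain compared to kidney tumors, brain compared to retro-orbital tumors, and fetal kidneys. The ligands had 15.9, 13.6, 0, 23.3, 15.6, 7.14 and 6.52%. Of the ligands tested, 7 of 44 were called in kidney tumors compared to control kidneys (6 higher), 6 of 44 compared to non-transformed kidneys (5 higher), 10 of 43 in retro-orbital compared to kidney tumors (4 higher), 7 of 45 in brain compared to kidney tumors (2 higher), 3 of 42 in brain compared to retro-orbital tumors, and 3 of 46 in the fetal kidneys (3 higher). Of 40 tested, 0 were called between non-transformed and control kidneys by edgeR, with 4 at an unadjusted p under 0.05. Pdgfa, the ligand of PDGFRA, rose in kidney tumors (log2 fold change 1.78 ± 0.29 SE, adjusted p = 0.00438). Of the co-receptors, 4, 3, 0, 2, 2, 0 and 0 of 11 were called in this order, or 36.4, 27.3, 0, 18.2, 18.2, 0 and 0%. Where edgeR called none of them, 1, 4 and 4 were at an unadjusted p under 0.05. Sdc1, a heparan sulfate co-receptor, was among those that rose in kidney tumors (log2 fold change 1.54 ± 0.36 SE, adjusted p = 0.0204).

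Of the adaptors, 5, 5, 0, 5, 1, 0 and 2 of 21 were called in the same order, or 23.8, 23.8, 0, 23.8, 4.76, 0 and 9.52% beside the shares of all genes above. Where edgeR called none, 2 and 8 adaptors were at an unadjusted p under 0.05. Irs2, the adaptor of the insulin and IGF receptors, rose in kidney tumors compared to control kidneys (log2 fold change 2.37 ± 0.39 SE, adjusted p = 0.00468) and to non-transformed kidneys (log2 fold change 1.94 ± 0.32 SE, adjusted p = 0.00386). The docking proteins Gab1 (log2 fold change -0.91) and Frs3 (log2 fold change -1.74) and the exchange factor Sos2 (log2 fold change -0.57) fell compared to control kidneys. Grb7, an adaptor of ERBB2 whose gene lies beside it, fell in retro-orbital (log2 fold change -4.19 ± 1.29 SE, adjusted p = 0.0486) and brain tumors (log2 fold change -4.82 ± 1.02 SE, adjusted p = 0.0259) compared to kidney tumors. In the fetal kidneys Irs1 rose (log2 fold change 1.21 ± 0.23 SE, adjusted p = 0.0412) and Gab2 fell (log2 fold change -0.48).

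The MAPK feedback genes gave 5, 4, 0, 3, 2, 1 and 2 calls of 20 in that order, or 25, 20, 0, 15, 10, 5 and 10%, and no common direction. Where edgeR called none, 3 were at an unadjusted p under 0.05. In kidney tumors compared to control kidneys the phosphatase gene Dusp4 (log2 fold change 2.17 ± 0.37 SE, adjusted p = 0.00564) and Spred3 (log2 fold change 1.66) rose, and Errfi1, an inhibitor of EGFR (log2 fold change -1.93), Ier3 (log2 fold change -1.49) and the ERK phosphatase gene Dusp6 (log2 fold change -1.25 ± 0.19 SE, adjusted p = 0.00356) fell. The list's median was -0.42, compared to 0.05 for all genes. In retro-orbital compared to kidney tumors Etv4 (log2 fold change 1.83 ± 0.37 SE, adjusted p = 0.00879), Dusp5 (log2 fold change 1.12) and Spry4 (log2 fold change 1.06) rose, with a list median of 0.13 compared to -0.09. In brain tumors Il17rd (log2 fold change -2.64) and Spry1 (log2 fold change -1.65) fell compared to kidney tumors, and Spry4 was lower than in retro-orbital tumors (log2 fold change -1.96). In the fetal kidneys Egr1 (log2 fold change 1.37) and Lrig1 (log2 fold change 1.35) rose.

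Between the models the effect of the fusion differed for 3 of 49 ligands (6.12%), 2 of 11 co-receptors (18.2%), 3 of 21 adaptors (14.3%) and 3 of 20 MAPK feedback genes (15%), where 8.94% of all genes did. Given as differences of log2 fold changes, it was higher in the adult for Ngfr (difference 4.01, adjusted p = 0.00161), Irs2 (difference 2.78, adjusted p = 0.00315), Areg (difference 4.68), Wnt5a (difference 1.5), Pdgfa (difference 1.31) and Spred3 (difference 1.64), and lower for Irs1 (difference -2.12, adjusted p = 0.00738), Lrp4 (difference -2.02), Gab1 (difference -1.22), Lrig1 (difference -1.33) and Dusp6 (difference -1.15). Fusion target sums were 65.4 to 674 CPM in dysmorphic fetal kidneys and 3260 to 7250 in kidney tumors. The models differ in Cre driver, age and tissue state at once, which cannot be told apart.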

How the data were processed

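Raw counts per gene were deposited by the authors, with 28 libraries of the Sglt2-Cre and 8 of the Pax8-Cre model in separate tables. Per the labels, libraries were made from total RNA with a stranded Kapa kit without ribosomal RNA depletion. The submitters' processing notes name FastQC, MultiQC, Bowtie2, STAR 2.5.2a and GRCm38/mm10. The counter, its strand setting and the annotation are not given in the sources used here. Of 53379 gene IDs, 53274 matched GENCODE M21 without the version, which gave symbols, coordinates and exon lengths. Coordinates may therefore differ from the authors' annotation. Of the counts from 1 to 20 in a library, 79.04 to 84.33% were even, as from counting both mates of a pair, so halved counts were tried. Reads carry no molecular identifiers, and the floor of 3 counts covers counting error only.

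Libraries of the same animal and tissue were summed, since the animal is the unit. That animals are separate was read from the sample titles. Comparisons were fitted with edgeR 4.0.16 (R 4.3.3) on the groups compared (TMM, filterByExpr, quasi-likelihood F-test, Benjamini-Hochberg), on all genes that passed the filter. The standard error (SE) was taken as the absolute log2 fold change over the square root of F. Levels are TMM-scaled CPM over all 28 samples of both tables, so levels set across the tables rest on joint scaling, and tests were made within a table except for the difference between the models. The code was tested on simulated data.

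The members and the lists of partners and markers were chosen with earlier results of these data known. Members are given with every animal if called in at least 2 of 7 comparisons, or if they had the largest rise or fall among the called members of a comparison (11 members). From each list of partners up to 4 called genes with the largest change were named per comparison, plus ligands and co-receptors of those members. Others were named after their values were seen.

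Tissues of the same mouse pair the samples (4 mice for kidney tumor and non-transformed kidney, 4 for retro-orbital and 3 for brain tumors). Same-mouse deviations from the group means correlated at -0.05 to 0.16, 0.25 to 0.32 and -0.08 to -0.06 over 16173 genes, and those of different mice at -0.37 to 0.28, -0.42 to 0.41 and -0.30 to 0.34, ranges that hold all same-mouse values. Alternatives were RLE and upper-quartile factors, no filter, halved counts, DESeq2 1.42.0, sex, every library as a sample, all groups of a table in 1 fit, the block and leaving out each animal.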

Additional observations from a re-analysis of the deposited data

Results flagged for a closer look

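A sample was set apart where its gap to the nearest of its group, divided by the group's range, passed Dixon's critical value. Of 168 groups of 4 to 6 animals tested over the members, 24 passed, and at a rate of about 1 in 20 chance gives 8.4.

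In retro-orbital tumors mouse 5 stood above the others for 5 receptors, with 7.9 CPM of Erbb4 (others 0.622 to 1.57), 6.71 of Fgfr2 (1.86 to 2.43), 1.91 of Fgfr4 (0.217 to 0.358), 1.69 of Insrr (0.105 to 0.234) and 1.52 of Ros1 (0.0167 to 0.0867). The same sample had proximal and distal tubule marker sums of 1010 and 594 CPM, and the part of kidney tissue in these levels was not tested. Mouse 3 had 35.3 CPM of Epha4 (20.7 to 21.2).

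Among dysmorphic kidneys, fetus 5 was high for Flt3 at 1.43 CPM (0.0753 to 0.418), Insrr at 2.83 (0.0942 to 0.837), Mertk at 94.7 (40.3 to 50.9), Ntrk3 at 31.8 (13.2 to 18.4), Alk at 2.93 (0.0188 to 0.837) and Ros1 at 190 (0.959 to 11.2). Its proximal tubule sum was 832 CPM compared to 43.1 to 142 in the others, and its part was not tested. Fetus 3 was high for Insr at 158 CPM (128 to 136), and fetus 4 for Epha4 at 47.8 (26.7 to 31.5) and Ephb4 at 71.8 (45 to 52.5).

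In kidney tumors Egfr was 123 CPM in mouse 1 (43.2 to 72 in the others) and Ror1 44.1 (16.2 to 25.9), Insrr was 20.1 in mouse 4 (0.0793 to 5.51) and Ltk 0.603 in mouse 5 (0.042 to 0.238). The single kidney tumor libraries of mouse 4 had 36.5 and 3.27 CPM of Insrr. In non-transformed kidneys Ret was 10.4 CPM in mouse 3 (1.99 to 2.48) and Ror1 17.4 there (23.6 to 24.4). Mst1r was 2.99 in mouse 4 (1.54 to 1.76), Epha2 was 9.94 in mouse 4 (7.74 to 8.07) and Insrr 25.1 in mouse 1 (16.5 to 17.6).

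The fusion effect differed between adult and fetal model, by an interaction term in edgeR, for Ret (7.19 on the log2 scale), Epha5 (5.72), Epha7 (3.50), Tyro3 (1.61), Egfr (-1.72) and Ephb3 (-1.64).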

How the results depend on the processing

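No call on a member reversed. Of 326 fold changes refitted without an animal, 216 kept the call and 110 lost it, and under other settings 290 kept it and 32 lost it. Counts of members called moved as follows, with the share of all genes called in parentheses and the cause not tested. Kidney tumors compared to control kidneys had 6 (19% of all genes), which became 11 with DESeq2 (21%), 16 with sex as a covariate (25.9%), 25 with every library as a sample (44.7%), and 2 to 10 without an animal (4.78 to 25.1%). Compared to non-transformed kidneys the 5 (17.1% of all genes) became 11 with DESeq2 (17.7%), 10 with libraries as samples (23.2%), 8 with all groups in 1 fit (17.7%), 2 with the mouse as a block (4.12%), and 1 to 5 without an animal (5.59 to 17%). Non-transformed compared to control kidneys had 0 (0.00952%), and 2 with DESeq2 (1.79%). Retro-orbital compared to kidney tumors had 13 (17.7%), 9 with the block (13.1%), and 7 to 15 without an animal (7.24 to 19.5%). There upper-quartile factors moved the median of all genes from -0.09 to 0.03 and the share of calls that were higher from 46.6% to 57.8%. Brain compared to kidney tumors had 9 (8.74%), which became 20 with DESeq2 (15.1%), 19 with libraries as samples (18.2%), 24 with all groups in 1 fit (25.1%), 0 with the block (0%), and 2 to 12 without an animal (1.26 to 6.36%). Brain compared to retro-orbital tumors had 0 (1.73%), and 2 with halved counts (2.62%), 14 with DESeq2 (9.5%), 15 with all groups in 1 fit (13.1%), and 0 to 5 without an animal (0 to 5.97%). No paired analysis was possible there because only 1 mouse gave both tissues. The fetal comparison had 1 (2.67%), and 3 with upper-quartile factors (2.68%), 2 with halved counts (3.45%), 7 with DESeq2 (7.7%), 0 with sex (0.022%), 1 with the block (1.8%), and 0 to 5 without an animal (0 to 5.58%). The difference between the models had 6 (8.94%), and 2 to 7 without an animal (3.79 to 11.7%). Of 70 group mean levels, 1 moved by more than its SD without TMM factors, Axl in control fetal kidneys, to 56.4 CPM. Single settings also ended calls near the threshold. Without the filter on low counts these were Ret (adjusted p = 0.0548) and Epha4 (0.0572) in brain compared to kidney tumors, Epha4 in retro-orbital compared to kidney tumors (0.0584), Epha7 compared to control kidneys (0.0527), Erbb2 compared to non-transformed kidneys (0.0681) and the difference of Tyro3 between the models (0.085). With sex as a covariate these were Ret (0.0793) and Epha4 (0.0662) in brain, Epha4 in retro-orbital tumors (0.0569), and Epha7 (0.0501) and Erbb2 (0.0578) compared to non-transformed kidneys, beside Musk. All groups in 1 fit ended the call of Epha4 in retro-orbital tumors (0.0551). The block ended 3 calls compared to non-transformed kidneys beside that of Ret. By Y-linked transcripts 2 of 6 fusion mice were male and all control mice female. Depth limits Epha5 in control kidneys, with 11, 6 and 2 counts.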
